A study of Mus musculus with 14 samples.

Results

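The genes described here are the clock output and negative limb genes, 9 genes of the circadian clock whose levels change over the day in many tissues. They are the repressors Per1, Per2, Per3 and Ciart, the REV-ERB genes Nr1d1 and Nr1d2, and the output factors Dbp, Hlf and Tef. All probe sets that carried 1 of these symbols alone in the platform annotation were taken, which gave 21 of the 45101 probe sets of the array and 9 of 18194 named genes. The genes had been picked with their low levels in part of the 67NR lungs known, so every value that sets 67NR lungs against other lungs is a description here and carries no test. The comparison of 4T1 with normal lungs has no 67NR array on either side, but its fit takes part of its spread from the 67NR arrays. It also shares the normal arrays with the comparison the genes were picked on.

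The arrays came from lungs of BALB/c mice given 1 of 3 injections. One group received 4T1 cells, a mouse breast carcinoma line that the labels call metastatic, in the fourth mammary fat pad (4 arrays). Another received 67NR cells, a mouse breast carcinoma line that the labels call nonmetastatic, at the same site (5 arrays). The third received PBS alone and is called normal (5 arrays). Lungs were taken on day 6 of tumour growth or at a tumour volume of about 50 mm3, and all were perfused with PBS. Each tumour class is a single cell line, and the sources used here do not give the hour at which the lungs were collected. The replicates are numbered samples that the labels do not tie to separate mice, so a p-value reflects the spread among these arrays alone, which may be technical.

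Array medians lay between 113.2 and 116.1 intensity units, so the arrays were on a common scale. The 9 lung markers checked, among them the surfactant gene Sftpc and the club cell gene Scgb1a1, had summed intensities of 68761 to 81683 in normal, 68199 to 81998 in 67NR and 67198 to 78980 in 4T1 lungs. Neutrophil markers summed to 22196 to 30040 in 4T1 lungs against 3875 to 7033 in normal and 5342 to 8604 in 67NR lungs. The 3 liver markers with a value were dim, at 102 to 122 in normal, 124 to 161 in 67NR and 123 to 177 in 4T1 lungs. In whole lung, fewer cells of a type and less RNA per cell cannot be told apart.

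In the clock of mammals, CLOCK or NPAS2 pairs with BMAL1 (gene Arntl) and switches on genes through E-boxes. The products of Per and Cry genes and of Ciart (also called Chrono) repress that pair, which closes the negative limb. Nr1d1 and Nr1d2 encode the nuclear receptors REV-ERB alpha and REV-ERB beta, which repress Arntl, Clock and Npas2 and oppose the ROR receptors at shared elements. Dbp, Tef and Hlf encode the PAR bZIP transcription factors, which carry the rhythm to output genes by binding D-boxes. The lung keeps such a clock of its own, in airway club cells among others.

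The promoter table of RefSeq (build GRCm38.p6) held 8 of the 9 genes, all but Per2, in 10 windows. The 250 bases before each start site were searched on both strands for the E-box CACGTG, the E-prime box CACGTT, the D-boxes TTATGTAA, TTATGCAA and TTACGTAA, the REV-ERB and ROR elements TAGGTCA and TGGGTCA, and the cAMP response element TGACGTCA. E-boxes stood in 4 of the 10 windows, those of Ciart, both of Tef and the first of the pair of Per1 windows, where 6.02% of all 32851 windows hold one. A D-box stood in the windows of Per1 and Per3, where 1.61% of all windows hold one of the 3 forms, and 0 of the 10 windows held a REV-ERB or ROR element, where 5.38% of all do. The 4 windows printed here hold the clock elements found in repressor and REV-ERB genes, with each match in capitals. The Ciart window (chr3:95882229-95882478, minus strand) held 3 E-boxes, the first of Per1 (chr11:69098699-69098948, plus strand) an E-box and a D-box, that of Per3 (chr4:151044666-151044915, minus strand) 2 D-boxes, and that of Nr1d1 (chr11:98775378-98775627, minus strand) an E-prime box. Hlf held a cAMP response element, present in 1.55% of windows, and the windows of Dbp and Nr1d2 held 0 of these letters. A match describes the letters and not binding, and an element outside the window is not seen.
Ciart: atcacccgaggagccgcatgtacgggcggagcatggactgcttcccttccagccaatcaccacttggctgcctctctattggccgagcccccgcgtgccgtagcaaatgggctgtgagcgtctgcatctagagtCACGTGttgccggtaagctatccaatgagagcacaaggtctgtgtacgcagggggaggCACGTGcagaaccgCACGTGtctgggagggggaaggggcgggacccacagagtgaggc
Per1: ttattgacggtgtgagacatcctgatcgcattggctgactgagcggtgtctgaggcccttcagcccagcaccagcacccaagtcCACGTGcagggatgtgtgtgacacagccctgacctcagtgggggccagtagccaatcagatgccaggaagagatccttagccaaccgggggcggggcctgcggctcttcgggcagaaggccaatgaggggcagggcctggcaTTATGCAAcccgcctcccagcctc
Per3: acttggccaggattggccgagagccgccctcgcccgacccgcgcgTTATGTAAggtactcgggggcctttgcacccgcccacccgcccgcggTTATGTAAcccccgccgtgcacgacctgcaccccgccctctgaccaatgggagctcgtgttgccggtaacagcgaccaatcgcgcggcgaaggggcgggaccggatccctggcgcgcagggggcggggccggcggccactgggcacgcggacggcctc
Nr1d1: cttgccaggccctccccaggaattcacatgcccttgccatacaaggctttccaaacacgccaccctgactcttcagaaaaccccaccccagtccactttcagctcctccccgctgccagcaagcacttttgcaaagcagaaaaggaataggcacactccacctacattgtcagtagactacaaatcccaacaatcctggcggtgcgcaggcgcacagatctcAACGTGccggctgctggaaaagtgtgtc

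For all 9 genes the log2 SD was larger among 67NR lungs than among normal or 4T1 lungs. In 67NR replicate 1 all 9 genes lay below every normal array, and in replicates 2, 3 and 4 it was 8 of 9. In replicate 5, 7 of the 9 lay within the normal range, 1 (Per3) below it and 1 (Nr1d1) above it. The gene inside the normal range was Nr1d1 in replicate 2, Per1 in replicate 3 and Per2 in replicate 4. The genes were picked with their low 67NR levels known, so these counts describe that choice. The share of all genes beyond the normal range was not computed for single arrays of either tumour group. The 4T1 lungs stayed within the normal range for 7 or 8 of the 9 genes on each array. The gene below it was Nr1d1 on all 4, and Per2 was above it in replicate 2. Levels below are deposited intensities of the probe set with the highest mean for each gene, and they are comparable between arrays but not between genes.

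**Figure D1:**
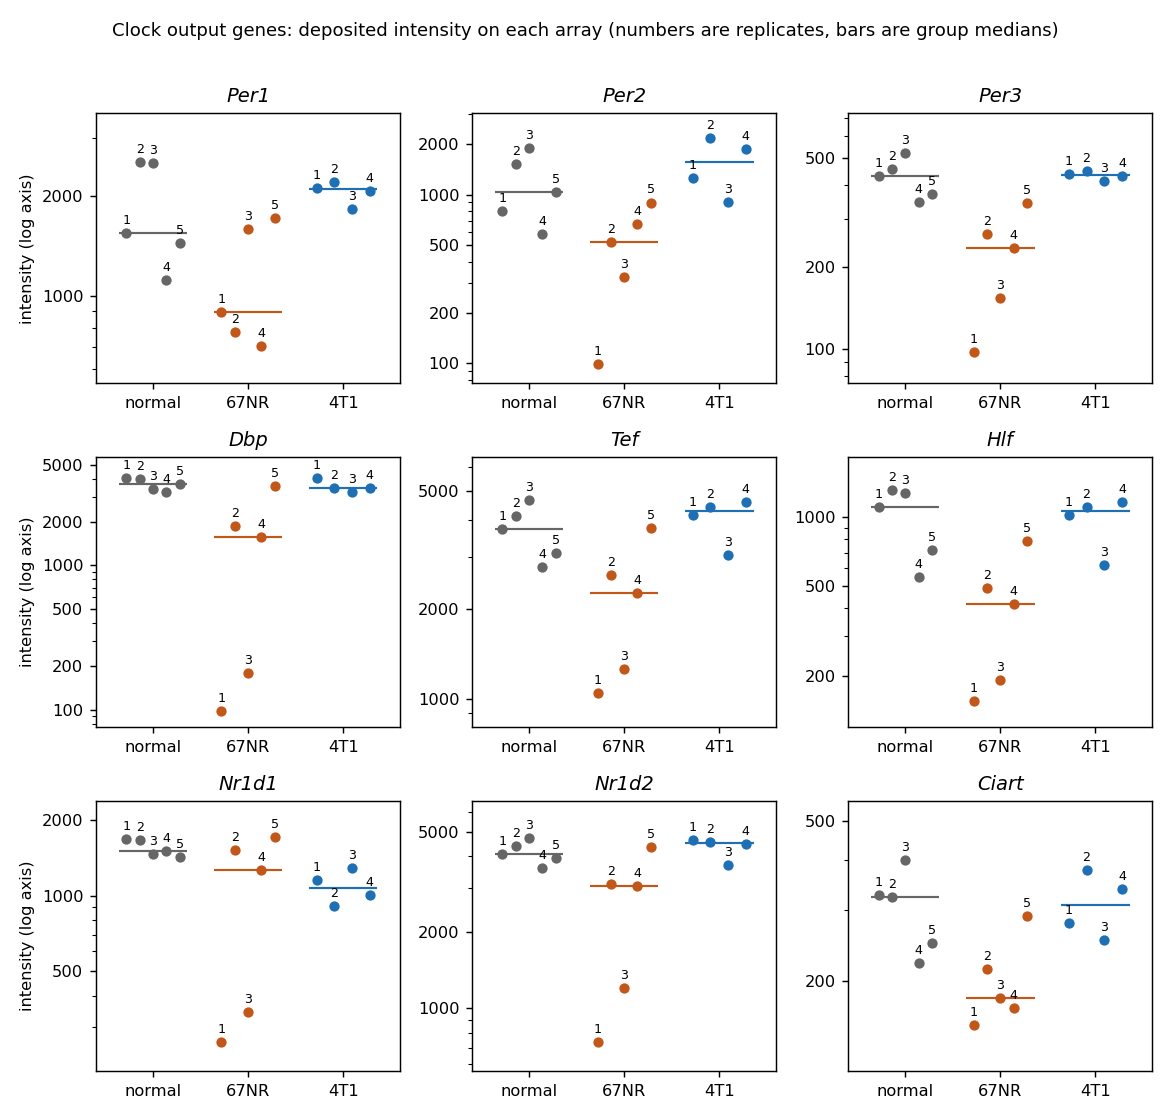
Deposited intensity (log axis) of the leading probe set of each of the 9 genes in normal, 67NR and 4T1 lungs, 1 point per array with its replicate number and a bar at the group median. For 7 of the 9 genes 67NR replicates 1 and 3 are the lowest of their group, while Per1 is lowest in replicates 4 and 2 and Ciart in replicates 1 and 4.

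Among the output factors, Dbp showed the widest spread. In normal lungs its intensity was 4032, 3961, 3371, 3212 and 3671 in replicates 1 to 5, and in 4T1 lungs 4018, 3421, 3215 and 3432. In 67NR lungs it was 98.3, 1861, 179.9, 1574 and 3549 in the same order. Replicates 1 and 3 thus stood at 2.68% and 4.90% of the normal median, replicates 2 and 4 near the middle and replicate 5 among the normal arrays. An intensity of 98.3 is under the median of all probe sets on the array, where no detection call tells a dim probe set from background. On the scale of log2(intensity + 16), which is used for all log2 values here, the SD of Dbp was 2.19 in 67NR lungs (n = 5), 0.14 in normal lungs (n = 5) and 0.14 in 4T1 lungs (n = 4). The second Dbp probe set gave the same order of 67NR arrays, from 112 in replicate 1 to 2884 in replicate 5.

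Hlf and Tef, relatives of Dbp that form dimers with it, kept the same order of 67NR arrays with a smaller span. Hlf measured 154, 487, 191, 414 and 788 in 67NR replicates 1 to 5, against 1110.5, 1321, 1279, 544 and 721 in normal lungs and 1024, 1115, 615 and 1176 in 4T1 lungs. Tef measured 1045, 2601, 1257, 2268 and 3755 in 67NR lungs, 3726, 4122, 4642, 2778 and 3086 in normal lungs and 4159, 4429, 3036 and 4585 in 4T1 lungs. For both genes 4 of the 5 67NR arrays were below every normal array, and replicate 5 overlapped. The ratio of the highest to the lowest 67NR array was 36.1 for Dbp, 5.12 for Hlf and 3.59 for Tef. In normal lungs the same ratio was 1.26, 2.43 and 1.67, so among normal lungs Hlf varied more than Dbp.

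The REV-ERB genes had the same order of 67NR arrays, but in replicate 2 Nr1d1 lay inside the normal range and Nr1d2 below it. Nr1d2 measured 735, 3103, 1209.7, 3059.7 and 4364 in 67NR replicates 1 to 5, 4096, 4394, 4753, 3587 and 3952 in normal lungs and 4632, 4553, 3693 and 4463 in 4T1 lungs. Nr1d1 measured 260.5, 1523, 345, 1268 and 1709.6 in 67NR lungs and 1684, 1671, 1473, 1511 and 1429 in normal lungs. In replicates 1 and 3 both genes were low, at 17.9% and 29.5% of the normal median for Nr1d2 and at 17.2% and 22.8% for Nr1d1. In replicates 2 and 4 Nr1d1 stood at 100.7% and 83.9% of that median and Nr1d2 at 75.8% and 74.7%, while Dbp was at 50.7% and 42.9% and Hlf at 43.8% and 37.3% there. Nr1d1 has 1 probe set on the array.

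Nr1d1 was the 1 member whose 4T1 and normal arrays did not overlap, though it passed the test in no setting. Its intensity in 4T1 replicates 1 to 4 was 1152, 912, 1289 and 1004, below the lowest normal array of 1429 in each case. Its log2 change in 4T1 against normal lungs was -0.52 (SE 0.45), or 1.43-fold lower, and did not pass (limma adjusted p = 0.954). The spread in that fit includes the 67NR arrays, whose log2 SD for Nr1d1 was 1.25 against 0.11 in normal and 0.22 in 4T1 lungs. A fit of 4T1 and normal arrays alone gave the same change with an SE of 0.097 and a limma adjusted p = 0.0875, also short of the threshold. Over all 26 alternative settings the change ranged from -0.60 to -0.39 and the adjusted p was 0.0875 at its lowest. Nr1d1 was 1 of 9 members whose 4T1 arrays lay wholly below the normal arrays, where 1.32% of all genes tested did, and 0 members lay wholly above, where 1.4% did.

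None of the 9 members passed the test between 4T1 and normal lungs. Limma called 0 of 9, against 0.412% of the 10916 genes tested, so few that 0 of 9 does not set the members apart. An unadjusted p under 0.05 was reached by 0 of 9, against 6.56%. That count cannot set the members apart either, since the 67NR arrays on which they were picked widen their SE in this fit. In the fit of 4T1 and normal arrays alone Nr1d1 had an unadjusted limma p of 0.000336. The next lowest limma p there was 0.235, for Per2. The median log2 change over the 9 genes was 0.046, beside -0.00077 over all genes tested, with 7 changes above 0 and 2 below. Per2 had the largest change above 0, at 0.44 (95% interval -0.66 to 1.55, limma adjusted p = 0.968), and Per1 had one of 0.24 (95% interval -0.37 to 0.85). For Dbp the change was -0.051 with an SE of 0.78, but an SE of 0.086 in the fit without 67NR arrays, since nearly all of its spread lay in the 67NR group. Nr1d2, the other REV-ERB gene, had a change of 0.061 (95% interval -0.77 to 0.896), and 0 of its 4 4T1 arrays were below the normal range.

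**Figure D2:**
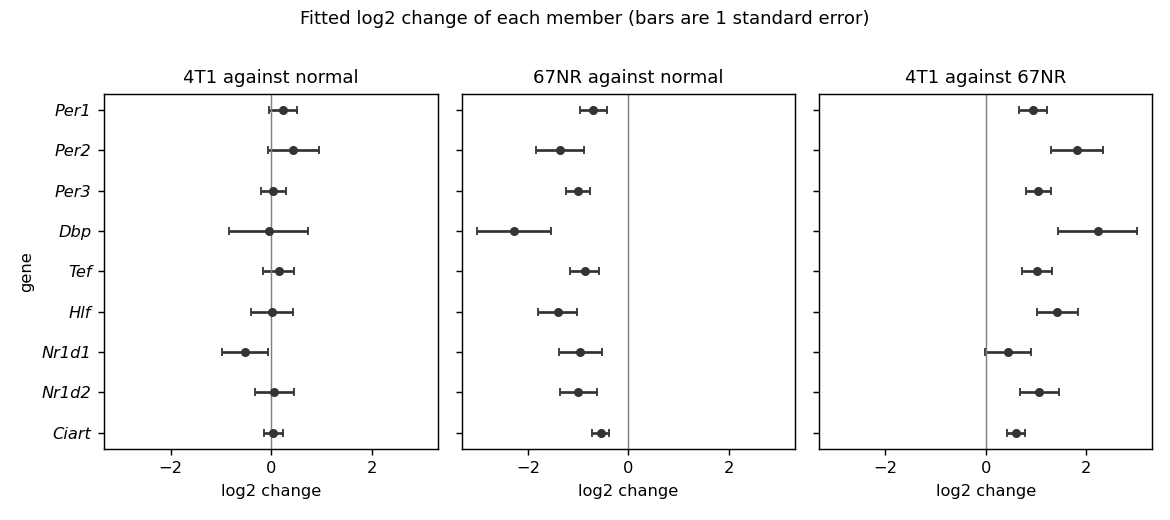
Fitted log2 change of each of the 9 genes in the 3 comparisons, with bars of 1 standard error. In 4T1 against normal lungs the changes lie around 0 with Nr1d1 lowest at -0.52, and in 67NR against normal lungs all 9 lie below 0, from -0.55 for Ciart to -2.28 for Dbp.

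The Per genes, which encode the period repressors, did not share 1 order of arrays. Per2 measured 98.7, 526, 325, 670.2 and 899 in 67NR replicates 1 to 5, 805, 1513, 1887, 583 and 1043 in normal lungs and 1254, 2172, 902 and 1855 in 4T1 lungs. Per3 measured 97.5, 264, 154, 234 and 342 in 67NR lungs, 430.3, 454, 521, 345 and 369.9 in normal lungs and 439, 448, 412 and 430.0 in 4T1 lungs. Both had their lowest levels in 67NR replicates 1 and 3, and Per3 was the one member whose 5 67NR arrays all lay below the normal arrays. Its replicate 5, at 342, was just under normal replicate 4, at 345.

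Per1 had another order. It measured 894, 779, 1594, 707 and 1717 in 67NR replicates 1 to 5, against 1544, 2541, 2517, 1119 and 1444 in normal lungs. Replicate 3, where Dbp stood at 4.90% of the normal median, thus had Per1 at 103.3% of it, and replicates 2 and 4 had the lowest Per1 of all 14 arrays. In 4T1 lungs Per1 measured 2118, 2207, 1833 and 2079, above all 67NR arrays and inside the normal range. Its log2 SD was 0.11 in 4T1 lungs (n = 4) against 0.52 in normal (n = 5) and 0.59 in 67NR lungs (n = 5).

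Per1 is also known as an early response gene and a glucocorticoid target, so lists of such genes stood beside it. The mean log2 level of 14 immediate early genes relative to normal lung was -0.37 and -0.34 in 67NR replicates 2 and 4, where Per1 was lowest, and -0.078, -0.13 and -0.12 in replicates 1, 3 and 5, with normal arrays at -0.22 to 0.25. In 4T1 lungs, where Per1 was inside the normal range, it was -0.38 to -0.12. The 10 glucocorticoid response genes, with Per1 left out, stood at -0.28, -0.36, 0.17, -0.19 and -0.057 in 67NR replicates 1 to 5, inside the -0.48 to 0.88 of normal arrays. In 4T1 replicates 1 to 4 this list stood at 0.0089, 0.79, -0.16 and 0.40, lowest in replicate 3, where 8 members were lowest too. Among normal lungs it was lowest in replicate 4, at -0.48, where 8 members were lowest too, and highest in replicate 3, at 0.88. In 67NR lungs it was lowest in replicate 2 and highest in replicate 3. There 8 members were lowest in replicate 1, and Per1 in replicate 4. The part of either list in the levels of Per1 or the other members was not tested.

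Ciart, the repressor with 3 E-boxes in the window shown above, had the smallest change in 67NR lungs. It measured 156, 215, 182, 172 and 291 in 67NR replicates 1 to 5, 328, 325, 401, 223 and 249 in normal lungs and 279.9, 378, 253 and 339 in 4T1 lungs. The 4 lowest 67NR arrays were below all normal arrays, with replicate 4 between replicates 1 and 3. Ciart has 1 probe set, and its log2 SD was 0.33 in 67NR lungs (n = 5) and 0.32 in normal lungs (n = 5).

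Set out as group differences, all 9 genes were lower in 67NR than in normal lungs, with a median log2 change of -0.9997 beside -0.0010 over all genes tested. In order the changes were -2.28 for Dbp (SE 0.74), -1.41 for Hlf, -1.37 for Per2, -1.004 for Per3, -0.9997 for Nr1d2, -0.96 for Nr1d1, -0.87 for Tef, -0.70 for Per1 and -0.55 for Ciart (SE 0.17). Limma called 0 of the 9 over all genes tested, where 0% of all genes were called, and all 9 had an unadjusted p under 0.05, where 9.13% did. One gene of the 9, Per3, did not overlap between the groups, where 0.797% of all genes lay wholly lower in 67NR lungs. These genes were picked on this comparison and the counts show no more than that choice. Without 67NR replicates 1 and 3 the median was -0.57, and without replicate 1 alone -0.65.

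In 4T1 against 67NR lungs the median log2 change was 1.04, from 0.44 for Nr1d1 to 2.23 for Dbp. Limma called 0 of 9, where 0.76% of all genes were called, and 8 of 9, all but Nr1d1, had an unadjusted p under 0.05, where 12.4% did. Per1, Per2 and Per3 were wholly higher in 4T1 lungs, where 2.35% of genes were, and 0 members were wholly lower, where 2.22% were. The direction of Nr1d1 hung on 2 arrays, since without 67NR replicates 1 and 3 its change was -0.46. Without 67NR replicate 5, the array on which all 9 genes were highest in their group, 4 members passed (Per3, Tef, Hlf and Ciart). The count over all genes tested went from 83 to 168. Those passes cannot count as support, since the members were picked for low 67NR levels and the array left out was their highest. The comparison shares the 67NR arrays with the one before and is a description too.

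Several probe sets read 6 of the 9 genes, and they shared the direction of the 67NR difference. The 67NR mean was below the normal mean for all 21, and replicates 1 and 3 were the 2 lowest 67NR arrays for 17. The 4 exceptions were the single probe sets of Per1 and Ciart, 1 of the 3 of Per2 and the dimmest of the 6 of Per3. That Per3 probe set, with a normal median intensity of 47.5, lay at -0.33 in replicate 1 and 0.16 in replicate 3 relative to the normal mean, while another Per3 probe set lay at -2.85 and -2.03. The probe sets of Per3 therefore differed in size of change by more than 2 log2 units on one array. In 4T1 against normal lungs 15 probe sets had changes above 0 and 6 below. The 3 probe sets of Tef differed in sign there, at 0.15, 0.15 and -0.35.

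**Figure D3:**
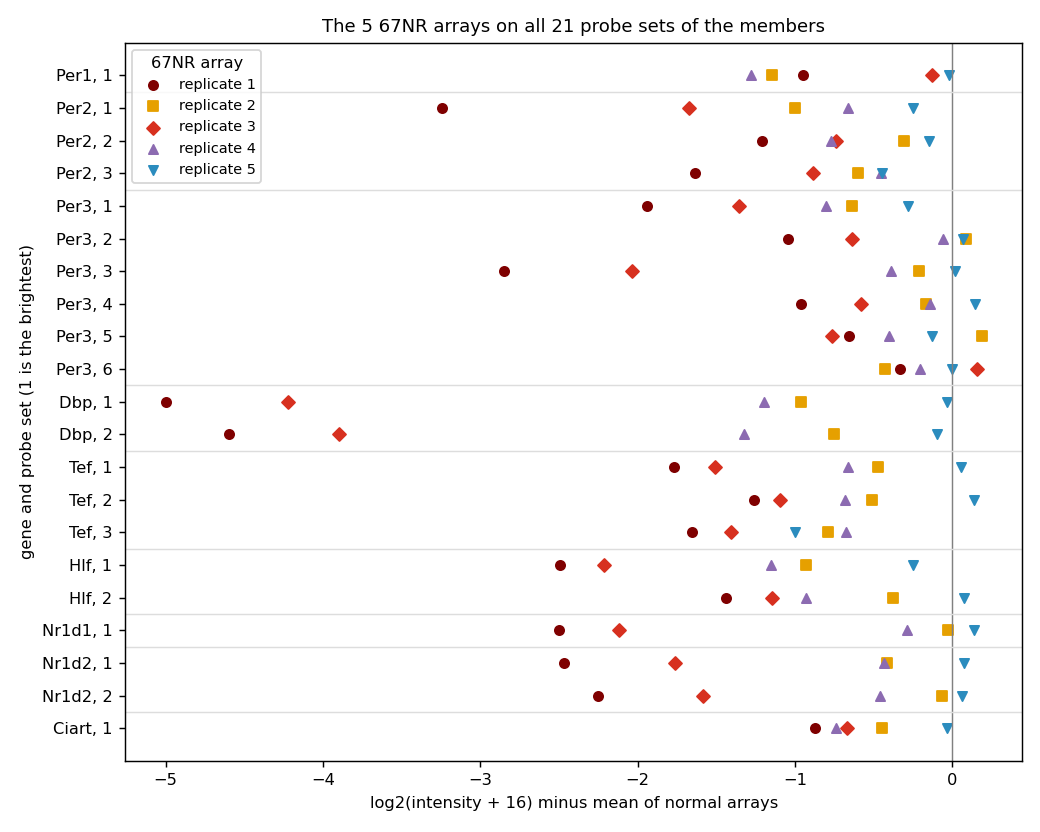
Log2(intensity + 16) of the 5 67NR arrays minus the mean of the normal arrays, for each of the 21 probe sets of the 9 genes, numbered from the brightest within a gene. Replicates 1 and 3 lie furthest to the left for 17 probe sets, down to -4.997 for Dbp in replicate 1, and replicate 5 lies close to 0 for most.

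The genes also varied together inside the other groups. Among normal lungs replicate 4 was the lowest array for 8 of the 9 genes, all but Nr1d1, where it was the lowest for 13.2% of all genes tested. Among 4T1 lungs replicate 3 was the lowest for 8 of the 9, again all but Nr1d1, where it was the lowest for 25.6% of all genes, and Nr1d1 was highest there. Per2 spanned 3.24-fold among normal lungs, Hlf 2.43-fold and Per1 2.27-fold, while Nr1d2, Dbp and Nr1d1 spanned 1.32-fold, 1.26-fold and 1.18-fold. Dbp, with the second narrowest span among normal lungs, had the widest among 67NR lungs.

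Correlations across arrays describe the same pattern and carry no test, since arrays of a group share their treatment. Over all 14 arrays the 36 pairs of members had Pearson r from 0.20 to 0.99 with a median of 0.89. Over the 12 arrays without 67NR replicates 1 and 3 the range was -0.53 to 0.96 with a median of 0.85, and over the 9 normal and 4T1 arrays it was -0.57 to 0.96 with a median of 0.79. Against the mean of the other 8 members, Per1 had r of 0.59 over 14 arrays and 0.96 over 12. Nr1d1 went the other way, with r of 0.79 over 14, -0.24 over 12 and -0.33 over 9. Tef, Hlf, Nr1d2 and Per3 had r between 0.91 and 0.94 over the 9 arrays that held no 67NR lung, and Dbp 0.31.

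Of the 24 other clock genes read for comparison, 17 passed the level filter and 7 (Npas2, Nfil3, Rorb, Bhlhe41, Fbxl21, Prok2 and Arntl2) did not. Limma called 0 of the 17 in each of the 3 comparisons, beside the shares of all genes given above. An unadjusted limma p under 0.05 was reached by 2 in 4T1 against normal lungs, where 6.56% of all genes did. It was reached by 9 in 67NR against normal lungs (9.13% of all genes) and by 8 in 4T1 against 67NR lungs (12.4%). This list was written with earlier results of these data known, so the counts are a description. In 67NR against normal lungs 6 of the 17 were higher and 11 lower, with a median of -0.095.

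Of other output genes on the list, Tspan4 had the order of 67NR arrays of Dbp, and Wee1 and Usp2 did not. Tspan4, a tetraspanin, measured 496, 1007, 517, 955 and 1296 in 67NR replicates 1 to 5 against 1143 to 2138 in normal and 1363 to 2077 in 4T1 lungs. Wee1, a kinase that holds cells before mitosis, measured 226, 279, 282, 320.3 and 424 in 67NR lungs against 337 to 799 in normal lungs. Usp2, a ubiquitin protease, measured 363, 581, 547, 380.0 and 859 against 555 to 1066. On these probe sets, the brightest of each gene, all 3 had their lowest 67NR level in replicate 1 and their highest in replicate 5. Replicate 3 was among the 2 lowest for Tspan4 alone. Changes in 67NR against normal lungs were -0.95, -0.76 and -0.60, and none of the 3 passed (limma adjusted p = 0.300, 0.309 and 0.421). The other probe sets of Wee1 and Usp2 had changes of -0.66 and -1.01. On that of Wee1 replicate 2 was lowest, at 118.6 beside 119.7 in replicate 1. Nampt, an enzyme of NAD synthesis, had a change of 0.020 (limma adjusted p = 0.969).

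Of the repressors outside the 9 genes, Bhlhe40, which competes for E-boxes, measured 399, 824, 543, 838 and 1079 in 67NR lungs and 1018 to 1196 in normal lungs. In 4T1 lungs it measured 852, 855, 827 and 987, below all normal arrays as Nr1d1 was, with a log2 change of -0.32 (limma adjusted p = 0.899, and 0.141 in the fit of these groups alone). Bhlhe41 measured 101 to 156 in 67NR and 121 to 171 in normal lungs. The cryptochromes parted from each other. Cry2 was lowest in 67NR replicates 1 and 3, at 263 and 320.3 against 409 to 616 in normal lungs, while Cry1 lay at 217 to 294 in 67NR, 213 to 423 in normal and 291 to 537 in 4T1 lungs.

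Clock, Nfil3 and Npas2 had higher levels on some 67NR arrays than on any normal array. Nfil3 and 1 probe set of Npas2 did so on some 4T1 arrays too. Clock measured 1092, 787, 1082, 1111 and 687 in 67NR replicates 1 to 5 against 507 to 807 in normal and 503 to 717 in 4T1 lungs (67NR against normal log2 change 0.56, limma adjusted p = 0.300). That is the tested probe set, and the other Clock probe sets had changes of 0.30, 0.35 and 0.23. On the one with 0.30, 67NR replicates 4 and 5 lay inside the normal range, at 226 and 232 against 158 to 236. Nfil3, which represses at D-boxes, measured 200.04, 58.5, 179, 99.3 and 47.0 in 67NR lungs against 37.6 to 74.5 in normal and 63.4 to 115 in 4T1 lungs. Npas2, the partner of BMAL1 in place of CLOCK, measured 306, 54.8, 108, 116 and 5.86 in 67NR replicates 1 to 5 on 1 probe set. The normal arrays had 4.88 to 35.8 there and the 4T1 arrays 5.45 to 42.1. On the other probe set Npas2 reached 123 and 95.6 in 67NR replicates 1 and 3 and at most 11.7 in the others. The normal arrays had at most 11.2 there and the 4T1 arrays at most 9.69. Nfil3 and Npas2 were under the level filter and were not tested. Rora, which activates at the elements that REV-ERB receptors repress, had a change of -0.25 in 67NR against normal lungs (limma adjusted p = 0.538). That is the tested probe set, and other Rora probe sets had changes as far apart as -0.21 and 0.33.

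Arntl was read differently by its probe sets. The tested one ranged from 152 to 262 on all 67NR arrays and from 179 to 238 on the normal ones. The other measured 782, 289.6, 668, 349 and 106 in 67NR replicates 1 to 5, 147, 48.4, 44.6, 210.3 and 205 in normal lungs and 134 to 198 in 4T1 lungs. Its order of 67NR arrays was the exact reverse of that of Dbp and Per3. Among normal lungs it was lowest in replicates 2 and 3, where Per1 and Hlf were highest.

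**Figure D4:**
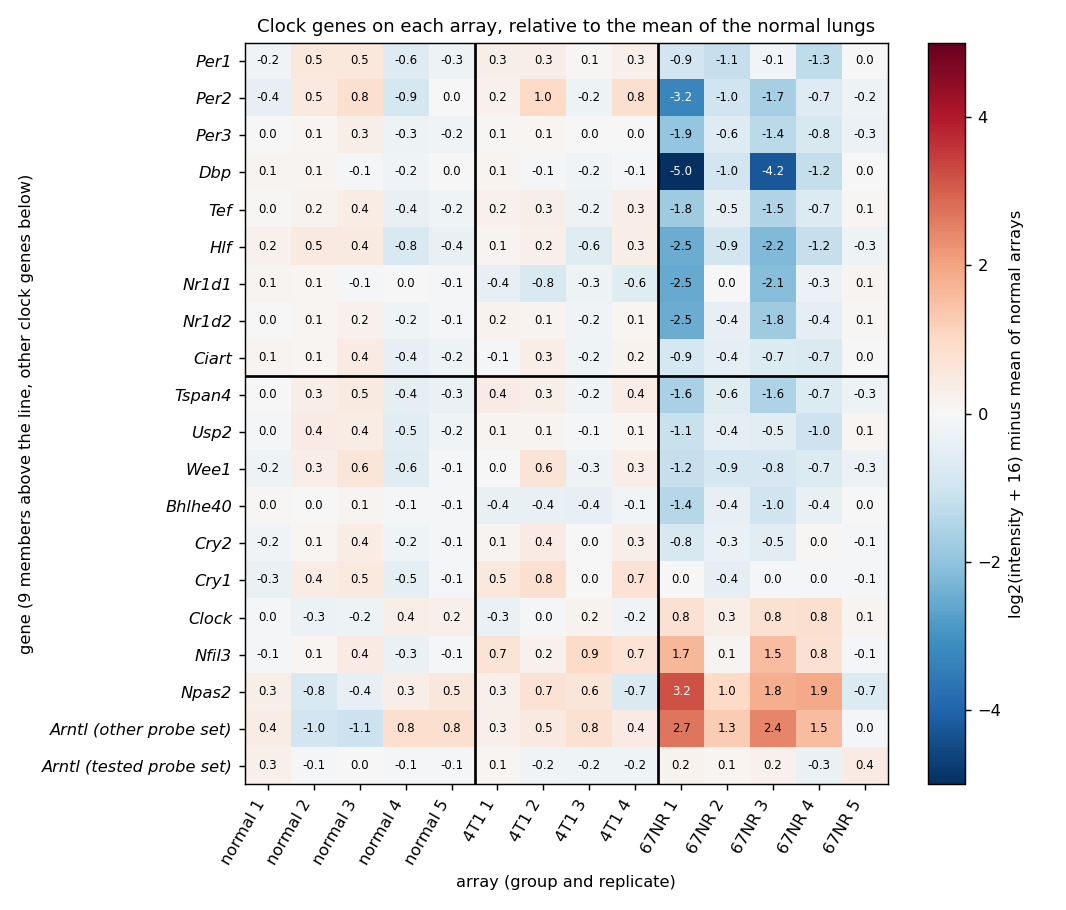
Log2(intensity + 16) minus the mean of the normal arrays for the 9 genes (above the line) and other clock genes (below) on each of the 14 arrays. Blue cells mark lower and red cells higher levels, and 67NR replicates 1 and 3 are blue for Dbp, Hlf, Tef, Nr1d1 and Nr1d2 and red for Clock, Nfil3, Npas2 and the second Arntl probe set.

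Among the other 10907 genes tested, Tspan4 was the one most like the mean of the 9 genes, with Pearson r of 0.96 over 14 arrays and 0.94 over the 12 without 67NR replicates 1 and 3. It was followed by Ankrd12 (0.95 and 0.84), Nptn (0.95 and 0.80), Eef2k (0.95 and 0.85), Rere (0.94 and 0.71), Zfyve21 (0.94 and 0.80), Pfkfb3 (0.93 and 0.904) and Slc1a5 (0.93 and 0.897). Pfkfb3, an enzyme that sets the pace of glycolysis, and Slc1a5, a glutamine transporter, kept r of about 0.9 when those arrays were left out, whereas Rere did not. The most opposite genes were Spon2 (-0.98 and -0.89), Adam17 (-0.95 and -0.89), Klhl13 (-0.93 and -0.77), Afap1l2 (-0.92 and -0.89), Nupr1 (-0.91 and -0.89), Eln (-0.904 and -0.84), Vgll3 (-0.904 and -0.90) and Rab27b (-0.904 and -0.72). Spon2, a secreted matrix protein, was higher by 2.56 and 2.20 on the log2 scale in 67NR replicates 1 and 3 than the normal mean, and by 0.15 to 0.59 in the others. Eln, the gene of elastin, was higher by 1.38 and 0.79 in these, and by 0.25 to 0.73 in the others. The median absolute r over all these genes was 0.28, and 12 genes had r above 0.9 and 9 below -0.9 over 14 arrays.

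Markers of tissue that dissection can bring along were read on the arrays where the 9 genes were lowest. The mean log2 level of 5 fat markers was 0.23 and 0.31 above the normal mean in 67NR replicates 1 and 3 and 0.28 to 0.43 below it in replicates 2, 4 and 5, while normal arrays lay between -0.28 and 0.29. In 4T1 replicates 1 to 4 they stood at -0.046, 0.020, 0.82 and 0.36, highest in replicate 3, which was the lowest 4T1 array for 8 of the 9 genes. Among normal lungs they stood at -0.039 in replicate 4, the lowest array for 8 of the 9 genes, and at 0.29 in replicate 3, the highest array for 5. The 6 heart muscle markers stood at 0.12 and 0.68 in 67NR replicates 1 and 3 and at -0.50 to 0.070 in the other 67NR arrays. Normal arrays stood at -0.34 to 0.42 and 4T1 arrays at 0.10 to 0.48. Of the fat markers Lep lay near the bottom of the scale on every array, at 12.3 intensity units or less. The part of such tissue in the 67NR levels was not tested.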

How the data were processed

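The 14 biotin-labelled Affymetrix mouse arrays were read from 1 table of probe set intensity values deposited by the authors. The sources do not state the authors' background correction, probe set summary or normalisation. No detection calls were used, so the number of arrays limits the precision. Groups were taken from the sample titles. Gene names came from GEO's platform annotation, where 34958 had 1 symbol, 932 several and 9211 none, and only those with 1 symbol were used.

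Values were taken as log2(intensity + 16), so fold changes understate those of dim genes. Each gene was represented by its brightest probe set on average, and the upper 60% of genes by mean level were tested (10916 genes, mean log2 above 7.35). The model, fitted in limma 3.58.1 (R 4.3.3) by lmFit and eBayes, had a mean for each group over 14 arrays and 11 residual degrees of freedom. Tests were two-sided and p-values were adjusted over all genes tested by the Benjamini-Hochberg method, with 0.05 as threshold; a fold is 2 to the power of a log2 change. The steps were tested on simulated data.

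The members, gene lists and settings were chosen with earlier results of these data known. The genes named are the 9 members, 24 other clock genes, of which 11 are given by value, and the 8 genes most like and the 8 most opposite to the member mean by Pearson r. Marker lists of lung, neutrophils, fat, heart, skeletal muscle, T cells and liver and of glucocorticoid and immediate early genes were read as sums and mean log2 levels. Skeletal muscle and T cell sums were 497 to 933 and 833 to 1147 over all arrays. Python 3.11.15 was used for tables and figures.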

Additional observations from a re-analysis of the deposited data

Results flagged for a closer look

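Per1 was flagged because all 4 4T1 arrays lay above and all 5 67NR arrays below the mean of the normal lungs on the log2 scale, a difference of 0.94 between the 2 changes. This difference was not tested as a finding, since the members had been chosen on the 67NR arrays, and the normal arrays themselves span both sides of that mean. Nr1d2 in 4T1 replicate 3, at a log2 level of 11.86, was flagged because its gap to the nearest of the other 4T1 arrays was 0.84 of the range of the group. Each of the 9 genes was checked in each of the 3 groups, 27 checks in all, and chance flags about 5% of such groups.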

How the results depend on the processing

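Of 696 recomputed member changes 688 kept their side of the threshold. The other 8 passed in 4T1 against 67NR lungs where the main fit called 0. The members were picked on the 67NR arrays, so those 8 are a description and carry no test. Members called in 4T1 against 67NR lungs numbered 4 with array weights and 0 to 4 when single arrays were left out, and other clock genes called numbered 4 with array weights and 0 to 3. Over all genes tested the counts in the same settings were 184 and 41 to 168, against 83. In the other 2 comparisons 0 members and 0 other clock genes were called in any setting, and the cause of these differences was not tested. The median member change in 67NR against normal lungs was -0.57 without 67NR replicates 1 and 3, and -1.23 to -0.65 when single arrays were left out. In 4T1 against 67NR lungs it was 0.61 without those replicates and 0.81 to 1.25 when single arrays were left out. In 4T1 against normal lungs it was -0.027 to 0.14 when single arrays were left out.

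Member changes had the other sign in 12 of 232 settings in 4T1 against normal lungs, in 0 of 232 in 67NR against normal lungs and in 1 of 232 (Nr1d1) in 4T1 against 67NR lungs. The 12 were changes of Hlf, Ciart, Per3, Tef and Dbp. With the replicate block, which uses the replicate numbers as a pairing, 0 members were called in each comparison and the median changes were 0.19, -0.9997 and 1.11 in the order given above. The numbers did not pair the arrays: 3 of 13 same-numbered pairs had a correlation of deviations above 0.1.

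Over all genes the counts called differed by over 1.5 times in some settings. In 4T1 against normal lungs, 45 genes became 26 in the upper 40% of level and 29 in a fit of the groups alone. In 67NR against normal lungs, 0 became 1 without a filter and 11 without replicates 1 and 3. In 4T1 against 67NR lungs, 83 also became 50 in a fit of the groups alone and 48 without 67NR replicates 1 and 3. Dim probe sets bound what the lowest 67NR levels can show.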
